A study of Homo sapiens with 22 samples.

Results

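Secreted and membrane-bound proteases, their receptors and their inhibitors were followed through 41 probes, each naming a different gene, of 14257 probes with deposited values. A probe was taken when its only gene symbol began with SERPIN, SPINT, TFPI, F2R, PLAU, PRSS, TMPRSS, KLK or ADAM, with MMP or TIMP and a digit, or was that of a coagulation or plasminogen factor (F2, F3, F7, F10, PLAT, PLG); the collagen chaperone SERPINH1 was left out. Of the 14257 deposited probes 8051 had 1 symbol, 400 had several and 5806 were unnamed here. The 41 genes are therefore those members that the annotation matched to a deposited probe of their own. The rule used names alone and no measured value.

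The RNA came from the pancreatic carcinoma line Mia-PaCa-2 and the melanoma line SK-MEL-28, both grown in RPMI medium with fetal bovine serum. Cells were left untreated or were exposed for 4 h to 1 µM Amblyomin-X, a recombinant protein of a tick that belongs to the Kunitz inhibitor family. There were 6 untreated and 6 treated arrays of Mia-PaCa-2, and 5 untreated and 5 treated arrays of SK-MEL-28. Each line is a single culture model without the stromal and blood cells that supply many proteases in a tissue. The hybridizations were independent labelled preparations. Whether the cultures were separate is not stated in the labels, and p-values therefore measure nothing beyond the spread between arrays.

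Extracellular proteases cut matrix proteins, growth factor precursors, receptors and each other, and most are made as inactive precursors. Serine proteases of the trypsin type are held in check by Kunitz domains, which block the active site like a tight-fitting substrate, and by serpins, which trap the protease in a covalent complex. Urokinase (PLAU), held at the cell surface by its receptor (PLAUR), turns plasminogen into plasmin, and plasmin in turn activates some matrix metalloproteinases (MMPs). The MMPs and many of the related ADAM and ADAMTS metalloproteases are inhibited by the TIMPs. Kunitz inhibitors act on the protein, not on the transcript, so the arrays speak of transcript levels and not of protease activity.

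The members fell into 13 trypsin-like serine proteases, 7 ADAMTS and ADAMTS-like genes, 5 ADAM genes, 5 serpins, 4 MMP-named genes, 4 TIMPs, 2 genes of the plasminogen system and 1 Kunitz inhibitor. Some carry a family name without being proteases or inhibitors. ADAM20P1 is a pseudogene, MMP25-AS1 is an antisense RNA, the ADAMTSL genes lack the protease domain, SERPINA6 is the corticosteroid-binding globulin and SERPINF1 (PEDF) does not inhibit proteases. No deposited single-symbol probe named TFPI, its relatives, a protease-activated receptor, tissue factor, thrombin, factor VII, factor X, plasminogen or tissue plasminogen activator. These direct partners of a Kunitz inhibitor of coagulation were therefore not analysed here, and whether the arrays carried probes for them was not checked.

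Deposited values were present for 30 members on the Mia-PaCa-2 arrays, for 23 on those of SK-MEL-28 and for 12 on both. All 5 serpins (SERPINA3, SERPINA6, SERPINB1, SERPINB8, SERPINF1), PLAU and PLAUR were present only in the Mia-PaCa-2 table. A probe without a value in a line is not evidence that the gene was silent there, since the labels do not state the filter behind the tables. Levels are given as the log2 of the authors' normalized intensity, and a difference of 1 on that scale is a 2-fold difference. The authors' normalization set each line on its own scale, and the median over all probes was 6.59 for Mia-PaCa-2 and 6.58 for the melanoma line. On the Mia-PaCa-2 arrays 9 of the 30 members had a mean below the lower quartile of all probes (5.96) and 10 lay above the upper quartile (7.63). In SK-MEL-28 6 of the 23 lay below the lower quartile (5.92) and 4 above the upper one (7.60), near the 25% of all probes that a quartile holds.

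RefSeq promoters (GRCh38.p14, 250 bases before to 50 after the start) were at hand for 35 of the 41 members. The letters TGANTCA, with any base at N, are the same on both strands. They take in the usual AP-1 site, which has C or G at N, and looser forms such as the TGAATCA of MMP10. They stood in 5 of the 35 (14.3%), namely ADAMTS12, MMP10, PLAUR, SERPINB8 and SPINT1, against 7.76% of all 27305 promoters at hand. The promoters of MMP10, PLAUR and SPINT1 are printed because these members hold the motif, are described by value in the text and stand for a protease, a protease receptor and an inhibitor. They lie on chr11:102780579-102780878 (minus strand), chr19:43670120-43670419 (minus strand) and chr15:40843798-40844097 (plus strand), and run 5′ to 3′ on the strand of the gene. Capitals mark TGANTCA and, in MMP10, also TATAAA. A match is a description of the letters and not evidence that a factor binds there.
MMP10: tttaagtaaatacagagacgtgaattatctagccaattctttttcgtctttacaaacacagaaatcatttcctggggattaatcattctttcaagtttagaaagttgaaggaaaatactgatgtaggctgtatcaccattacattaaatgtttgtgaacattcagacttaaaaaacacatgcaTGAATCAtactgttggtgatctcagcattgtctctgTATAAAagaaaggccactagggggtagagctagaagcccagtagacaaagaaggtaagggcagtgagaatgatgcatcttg
PLAUR: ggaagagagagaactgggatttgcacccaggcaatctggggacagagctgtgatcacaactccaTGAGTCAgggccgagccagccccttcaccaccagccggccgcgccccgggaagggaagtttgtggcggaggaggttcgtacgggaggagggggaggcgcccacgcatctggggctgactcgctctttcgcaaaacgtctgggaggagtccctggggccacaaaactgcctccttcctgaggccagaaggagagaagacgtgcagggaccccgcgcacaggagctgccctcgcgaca
SPINT1: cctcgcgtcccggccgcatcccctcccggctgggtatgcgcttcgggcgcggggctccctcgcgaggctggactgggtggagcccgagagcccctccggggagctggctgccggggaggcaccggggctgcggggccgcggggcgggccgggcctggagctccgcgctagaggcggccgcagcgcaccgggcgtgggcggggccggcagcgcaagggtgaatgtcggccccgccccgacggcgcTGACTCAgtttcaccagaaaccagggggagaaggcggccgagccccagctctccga

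Some arrays stood apart. The share of each line's profile in an array was fitted over 5195 probes, and a weight of 1 means that the array matches the mean of that line. Untreated Mia-PaCa-2 arrays 4 and 5 had weights of 0.590 to 0.595 for their own profile and 0.513 for that of SK-MEL-28, whereas the other 10 Mia-PaCa-2 arrays had weights of 0.958 to 1.03 and -0.0306 to 0.0459. In SK-MEL-28, treated arrays 3 and 5 had weights of 0.588 to 0.595 for the Mia-PaCa-2 profile and 0.433 to 0.481 for their own, against -0.0215 to 0.0480 and 0.925 to 1.00 on the other 8. Where the treatment difference of a single member in a line is given, it is also given without these 4 arrays. Some members are described by array values alone. Of 12 epithelial markers 5 (CLDN4, KRT8, KRT18, KRT19, MUC1) were measured in Mia-PaCa-2, with a log2 summed level of 13.2 to 13.9 untreated and 13.5 to 14.2 treated. None of 18 melanocyte markers had a named probe in SK-MEL-28, so the melanoma label could not be checked. In Mia-PaCa-2 2 of the 18 (RAB27A, SLC45A2) were measured, with a log2 summed level of 7.81 to 9.33 untreated and 8.89 to 9.44 treated. Of the epithelial markers only MUC1 was measured in SK-MEL-28, at 5.79 to 7.03 untreated and 6.16 to 7.86 treated. The 2 probes named EEF1A1, a gene every cell uses strongly, disagreed in SK-MEL-28: on the 5 dim arrays among the 8 one read 5.80 to 6.87 and the other 11.07 to 11.88, on the 3 bright ones (by the highest intensity before normalization) they read 10.79 to 11.23 and 11.23 to 13.27, and on treated arrays 3 and 5 they read 10.36 to 13.74 and 11.88 to 11.9997. Whether this bears on the naming of other probes was not tested.

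The first question was whether exposure changed any member in Mia-PaCa-2. No member passed the test: limma called 0 of 30 members at an adjusted p of 0.05, as it called 0 of 11604 probes (0.0%), and the smallest adjusted p of a member was 0.501. An unadjusted p under 0.05 was found for 3 members, all with lower treated means, against 9.59% of all probes (4.4% lower and 5.19% higher). Of the 30 differences 19 were below 0, against 48.8% of all probes, and the median was -0.13, against 0.01 over all probes. Without untreated arrays 4 and 5, 15 of 30 lay below 0 (49.4% of all probes), and the median was -0.01. In that fit 2 members were lower and 2 higher at an unadjusted p under 0.05, against 5.48% of all probes (2.52% lower and 2.96% higher), with 0 called (0.0%), and 6 members took the opposite sign. The treated and untreated arrays of no member were fully separate, against 0.543% of probes.

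**Figure D1:**
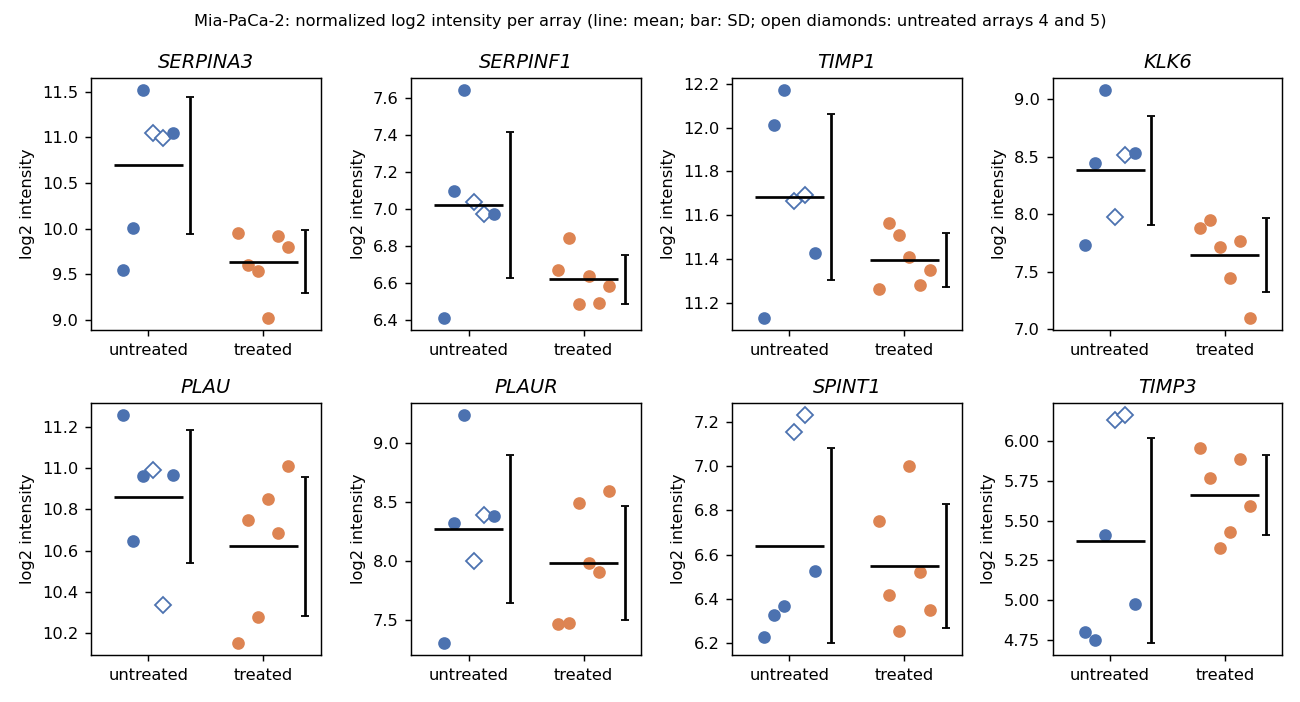
Log2 intensity of 8 members in Mia-PaCa-2 (y axis), with 1 point per array for untreated and treated cells; horizontal lines are group means, bars are SD, and open diamonds are the untreated arrays 4 and 5. SERPINA3 has a treated mean of 9.64 against 10.69 untreated, and the treated and untreated points of every member overlap.

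Among inhibitors, SPINT1, the membrane-bound Kunitz inhibitor of hepsin- and matriptase-type proteases, is the closest human relative of the treatment in the set. Its untreated arrays ran from 6.23 to 7.23 with a median of 6.44, and the treated ones from 6.26 to 7.003 with a median of 6.47. The 2 highest untreated values were those of arrays 4 and 5, at 7.16 and 7.23. The difference was -0.09 ± 0.222 (SE) and 0.19 without those arrays, so the direction turned without them.

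SERPINA3, or alpha-1-antichymotrypsin, an acute-phase inhibitor of chymotrypsin-like proteases, had the smallest p of any member. Its untreated levels were 9.54, 11.02 and 11.52 (lowest, median, highest), and its treated levels were 9.02, 9.70 and 9.95. The untreated mean was above all 6 treated arrays, but untreated arrays 1 and 2, at 9.54 and 10.01, lay near or within the treated range. The means were 10.69 ± 0.75 untreated and 9.64 ± 0.35 treated (SD, n = 6 each), a difference of -1.06 ± 0.305 (SE; limma unadjusted p = 0.00328, adjusted p = 0.501). Without untreated arrays 4 and 5 it was -0.89 (limma unadjusted p = 0.0227, adjusted p = 0.884).

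SERPINF1, a secreted anti-angiogenic serpin, ran from 6.41 to 7.65 untreated (median 7.01) and from 6.49 to 6.84 treated (median 6.61). Each of the 6 treated arrays was below the untreated mean, with a difference of -0.40 ± 0.196 (SE; limma unadjusted p = 0.0562), and -0.41 without arrays 4 and 5. Over the 5 serpins 3 differences were below 0 and 2 above, from -1.06 to 0.23.

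TIMP1, an inhibitor of most soluble MMPs, ran from 11.13 to 12.17 untreated with a median of 11.68. Its treated arrays lay between 11.26 and 11.56, below the untreated mean in 6 of 6, with a difference of -0.29 ± 0.192 (SE), and the same size without arrays 4 and 5. TIMP3, which binds to the matrix and also blocks several ADAMs, was singled out after its values were seen. Its mean over all Mia-PaCa-2 arrays, 5.52, was below the lower quartile of all probes (5.96). Its untreated levels were 4.80, 4.75, 5.41 and 4.98 on arrays 1, 2, 3 and 6, and 6.13 and 6.16 on arrays 4 and 5, whereas the treated arrays ran from 5.33 to 5.96. The difference was 0.29 ± 0.267 (SE) with all arrays and 0.68 ± 0.188 without arrays 4 and 5 (limma unadjusted p = 0.00351, adjusted p = 0.884), with the treated arrays above the untreated mean in 5 of 6 and 6 of 6.

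In the plasminogen system, PLAU lay between 10.34 and 11.26 untreated (median 10.96) and between 10.15 and 11.01 treated (median 10.72). The difference was -0.24 ± 0.207 (SE), and -0.34 without arrays 4 and 5. PLAUR, the surface receptor of urokinase, ran from 7.30 to 9.24 untreated (median 8.35) and from 7.46 to 8.59 treated (median 7.95), with a difference of -0.28 ± 0.296 and -0.32 without those arrays. Both genes had broadly overlapping groups.

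Of 8 serine proteases measured, 5 had differences below 0 and 3 above. KLK6, a secreted kallikrein-related trypsin-like protease, ran from 7.73 to 9.08 untreated (median 8.48) and from 7.09 to 7.95 treated (median 7.74). Only untreated arrays 1 and 4, at 7.73 and 7.97, came near the treated levels, and 6 of 6 treated arrays were under the untreated mean. The difference was -0.74 ± 0.234 (SE; limma unadjusted p = 0.00641, adjusted p = 0.501), and -0.80 without arrays 4 and 5 (limma unadjusted p = 0.00736, adjusted p = 0.884).

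PRSS33, a trypsin-like protease, had untreated levels of 6.77 and 6.98 on arrays 4 and 5 and 5.69 to 5.96 on the other 4, and treated levels of 4.74 to 5.93. Its difference of -0.68 ± 0.289 (SE, limma unadjusted p = 0.0313) became -0.32 without those arrays. The PRSS33 mean over all Mia-PaCa-2 arrays, 5.80, was below the lower quartile of all probes (5.96). KLK15 ran from 7.31 to 8.90 untreated and from 8.12 to 8.81 treated, with a difference of 0.08 ± 0.251, and 0.011 without arrays 4 and 5. TMPRSS5, a transmembrane serine protease also called spinesin, had 9.23 and 9.14 on untreated arrays 4 and 5 and 7.94 to 8.27 on the others, against 7.79 to 8.64 treated; its difference was -0.22 ± 0.254 and 0.14 without them.

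MMP10 (stromelysin 2), which cuts proteoglycans and fibronectin and activates other MMPs, had 9.16 and 9.15 on untreated arrays 4 and 5 and 7.93 to 8.06 on the other 4. The treated arrays ran from 7.73 to 8.07, with a difference of -0.51 ± 0.247 (SE; limma unadjusted p = 0.0581) that became -0.12 without these arrays. MMP14, the membrane-bound MMP that activates MMP2, ran from 5.37 to 5.75 untreated, and was 6.03 to 6.27 on treated arrays 1, 2, 4 and 5 but 5.39 and 5.41 on treated arrays 3 and 6. Its difference was 0.37 ± 0.195, and 0.47 without arrays 4 and 5 (limma unadjusted p = 0.0338). The MMP14 mean over all Mia-PaCa-2 arrays, 5.69, was below the lower quartile of all probes (5.96). ADAM9, a sheddase with an adhesive domain, ran from 8.20 to 9.25 untreated and from 7.74 to 8.93 treated, with a difference of -0.22 ± 0.23, and -0.36 without arrays 4 and 5. Differences of the 3 ADAM genes lay between -0.22 and -0.02 (-0.36 and 0.12 without those arrays), and those of the 4 ADAMTS genes between -0.31 and 0.30 (-0.07 and 0.37).

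Further members of Mia-PaCa-2 are given in less detail. TIMP2, an inhibitor of MMPs that also takes part in activating MMP2, differed by 0.04, and by -0.06 without arrays 4 and 5, and its treated arrays 2, 4 and 6 (8.20, 8.17 and 8.35) stood above treated arrays 1, 3 and 5 (7.45 to 7.66). SERPINA6 differed by 0.23, SERPINB1, an intracellular inhibitor of neutrophil proteases, by -0.17, and SERPINB8 by 0.19, and without those arrays by 0.21, -0.24 and 0.15. ADAM10 and ADAM17, the main sheddases of Notch and of tumour necrosis factor, differed by -0.03 and -0.02, and by -0.04 and 0.12 without those arrays, where ADAM17 took the opposite sign. PRSS36 was at 7.12 to 7.28 on the treated arrays and at 7.17 to 7.50 on the untreated arrays other than array 4, which read 8.54. Its difference was -0.36, and -0.11 without arrays 4 and 5.

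**Figure D2:**
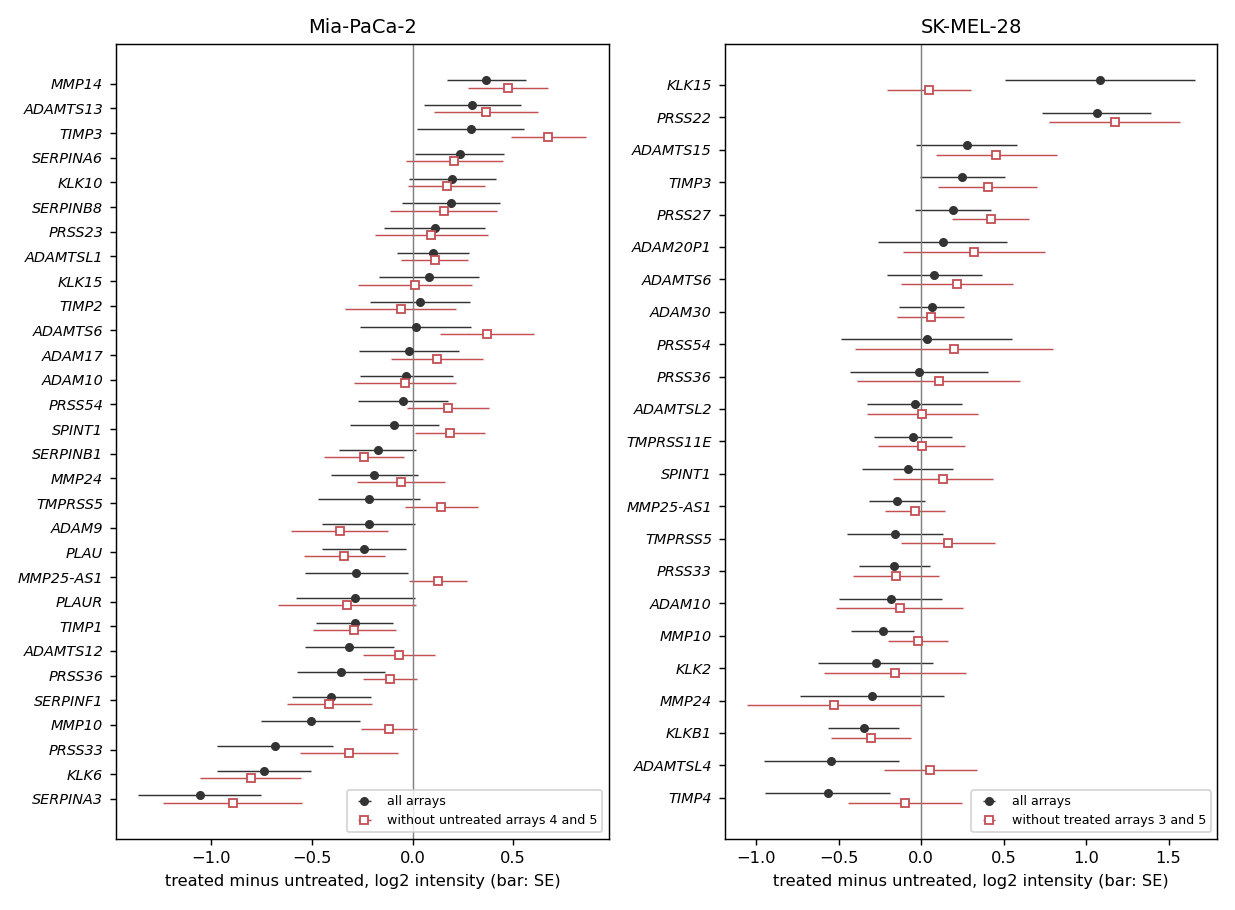
Treated minus untreated log2 intensity (x axis) of each member, with 1 panel per line and all arrays (filled, with the limma SE as bars) and without the 4 arrays that resembled both lines (open squares, with their SE). With all arrays, differences run from -1.06 to 0.37 for Mia-PaCa-2 and from -0.57 to 1.08 for SK-MEL-28; none passed the adjusted threshold.

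In the melanoma line, limma called 0 of 23 members and 0 of 7973 probes (0.0%), with a smallest adjusted p of 0.838 among members. Only 1 member had an unadjusted p under 0.05, against 5.59% of all probes (3.06% lower and 2.53% higher). Of the 23 differences 14 lay below 0, against 57.4% of all probes, with a median of -0.05 for the members and for all probes. Without treated arrays 3 and 5, 8 of the 23 lay below 0 (47.5% of 7904 probes) with a median of 0.06. One member again had an unadjusted p under 0.05, against 2.61% of probes (1.23% lower and 1.38% higher), 0 were called (0.0%) and 6 took the opposite sign. The groups of no member were fully separate, against 1.2% of probes.

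PRSS22, a trypsin-like protease also called brain-specific serine protease 4, was the 1 member. Its untreated arrays read 4.65, 5.10, 4.43, 5.78 and 4.51, and its treated arrays 5.59, 6.90, 5.48, 5.71 and 6.11. Each of the 5 treated arrays was above the untreated mean, and the groups overlapped through untreated array 4. The untreated mean of 4.90 was below the lower quartile of all probes (5.92). The difference was 1.06 ± 0.331 (SE; limma unadjusted p = 0.00804, adjusted p = 0.838), and 1.17 without treated arrays 3 and 5.

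KLK15 had the largest difference of any member in the line, and 2 arrays carried it. Untreated arrays read 5.54, 6.38, 5.61, 5.56 and 6.01, and treated arrays 5.55, 5.94, 8.32, 6.12 and 8.61, so treated arrays 3 and 5 stood above every other array. The difference of 1.08 ± 0.575 (SE; limma unadjusted p = 0.0853) became 0.05 without them. KLKB1, plasma prekallikrein, which activates the contact system and releases bradykinin as an active protease, read 6.53, 5.87, 6.14, 5.87 and 6.44 untreated and 6.18, 5.89, 5.49, 5.52 and 6.03 treated. Its groups overlapped, with a difference of -0.35 ± 0.214, and -0.30 without treated arrays 3 and 5.

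TIMP4, an MMP inhibitor, read 5.71, 5.46, 6.16, 5.99 and 5.18 untreated and 5.23, 6.43, 4.07, 5.15 and 4.80 treated. Its difference of -0.57 ± 0.38 was -0.10 without treated arrays 3 and 5, of which array 3 held the lowest value. ADAMTSL4, a fibrillin-binding matrix protein, read 5.998, 5.99, 6.38, 6.83 and 5.78 untreated and 6.50, 5.84, 4.22, 6.42 and 5.29 treated, with treated array 3 lowest again. Its difference of -0.54 ± 0.409 was 0.06 without treated arrays 3 and 5. TIMP3 read 6.39, 5.51, 6.31, 6.63 and 5.57 untreated and 6.33, 6.36, 6.02, 6.77 and 6.18 treated, a difference of 0.25 ± 0.257, and 0.40 without treated arrays 3 and 5.

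The members of highest mean level in SK-MEL-28 had small differences. Of these, PRSS33 and SPINT1, with means of 6.82 and 7.38, lay below the upper quartile of all probes (7.60). MMP10 read 9.46, 9.54, 9.44, 9.53 and 9.52 untreated and 9.44, 9.78, 8.95, 9.22 and 8.93 treated, and the lowest values were those of treated arrays 3 and 5. Its difference was -0.23 ± 0.192, and -0.02 without them. MMP25-AS1 read 8.67, 8.50, 8.67, 8.62 and 8.41 untreated and 8.73, 8.60, 8.39, 8.28 and 8.13 treated, a difference of -0.15 ± 0.17, and -0.03 without treated arrays 3 and 5. PRSS33 read 6.90, 6.87, 6.74, 6.98 and 7.04 untreated and 6.74, 7.35, 6.82, 6.16 and 6.63 treated, a difference of -0.16 ± 0.215, and -0.15 without them. For SPINT1, PRSS36 and TMPRSS5 the differences were -0.08 ± 0.277, -0.01 ± 0.417 and -0.16 ± 0.293, and 0.13, 0.11 and 0.16 without treated arrays 3 and 5.

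Levels of other members split the SK-MEL-28 arrays in another way. On 4 arrays (1 and 3 of each group) the highest deposited intensity before normalization lay between 24899 and 32409, and on the other 6 between 6140 and 12415. PRSS36 read 7.08 and 6.96 on untreated arrays 1 and 3, 7.12 and 7.21 on treated arrays 1 and 3, and 8.21 to 8.59 on the other 6. SPINT1 read 6.76 to 7.06 on the bright arrays and 7.27 to 7.90 on the dim ones, and TMPRSS5, whose arrays overlapped, 8.41 to 8.93 and 8.91 to 9.81. PRSS54, an inactive protease homologue, read 4.87 to 5.26 on the bright arrays and 6.57 to 7.09 on the dim ones. TMPRSS11E, a transmembrane serine protease, went the other way, with 6.55 to 6.94 on the bright arrays and 5.92 to 6.42 on the dim ones. Limma with treatment in the model called 6 of 23 members between the sets, against 25.4% of all probes (38.5% at an unadjusted p under 0.05). The arrays of 4 members were fully separate, against 20.2% of probes, so the members' share was near that of all probes. Each set held as many untreated as treated arrays, so the set as a block could not change the difference of a member with every value. For PRSS22 the difference was 1.06 in either fit (with the block, limma unadjusted p = 0.00294, adjusted p = 0.378). It was 0.99 on the bright arrays alone and 1.11 on the dim arrays alone. These are parts of the arrays on which PRSS22 had the smallest p of the members, so they are not separate evidence. The highest intensities of the Mia-PaCa-2 arrays, 12995 to 27669, showed no such gap, and the same limit put 3 untreated and 5 treated arrays on the bright side and 3 untreated and 1 treated on the dim side. With that set as a block 0 of the 30 members were called, SERPINA3 was at -1.02, KLK6 at -0.73 and SPINT1 at 0.053.

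**Figure D3:**
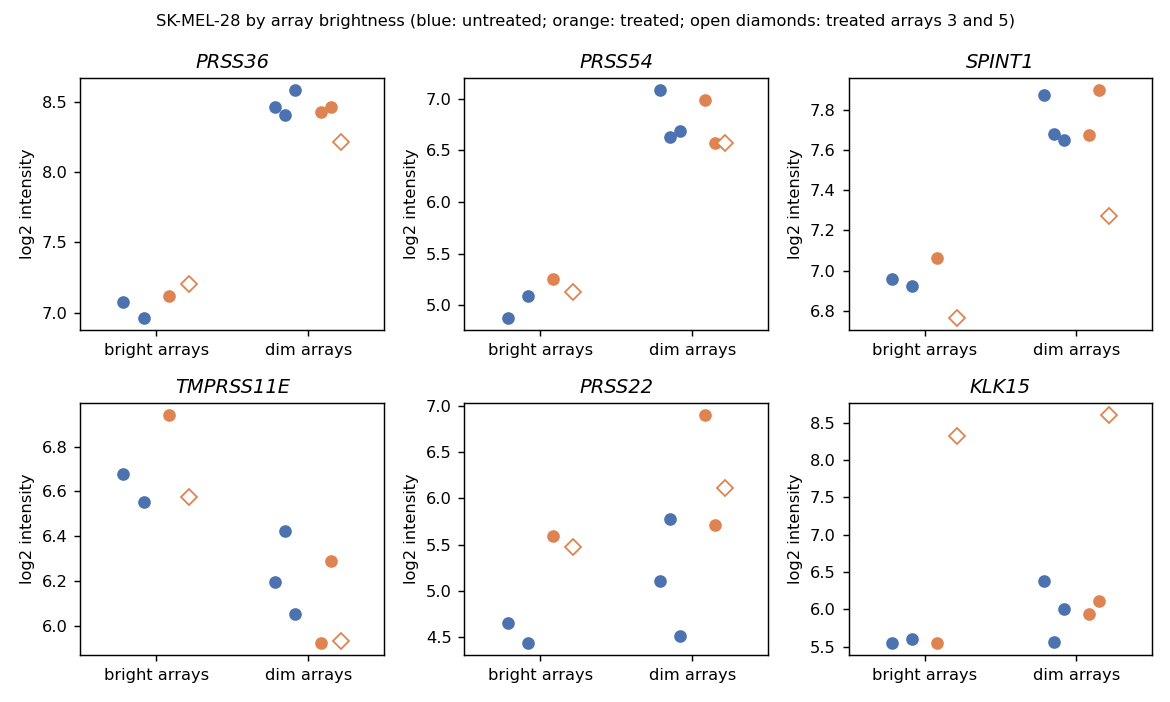
Log2 intensity in SK-MEL-28 (y axis) of members by array, with bright and dim arrays set apart, untreated arrays in blue and treated arrays in orange, 1 point per array, and treated arrays 3 and 5 as open diamonds. PRSS36 lies between 6.96 and 7.21 on the 4 bright arrays and between 8.21 and 8.59 on the 6 dim ones, whereas PRSS22 is higher in treated arrays of both sets on average.

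The effects of the exposure in the lines were then compared over the 12 members measured in both, with the contrast of Mia-PaCa-2 minus SK-MEL-28. Limma called 0 of 12 and 0 of 5321 probes (0.0%), and 0 of the 12 had an unadjusted p under 0.05, against 5.47% of probes. The differences of the effects were above 0 in 3 and below 0 in 9, against 74.7% of all probes below 0, with a median of -0.07 for the members and -0.22 over all probes. Without the 4 arrays that resembled both lines 6 were above and 6 below 0, against 52.5% of probes below, with a median of 0.02, 0 called (0.0%) and 0 with an unadjusted p under 0.05 (2.98% of probes). That of KLK15 was the farthest from 0, at -1.003 ± 0.62 (SE; limma unadjusted p = 0.117, adjusted p = 0.877), and it was -0.04 without these arrays.

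Levels in the lines were normalized apart and are set side by side without a test. Of the 12 members 6 differed by more than 1 on the log2 scale between the other 10 Mia-PaCa-2 and the other 8 SK-MEL-28 arrays, as did 2453 of all 5324 probes in both. MMP10 had a mean of 7.91 ± 0.12 on the Mia-PaCa-2 arrays and 9.49 ± 0.16 on those of SK-MEL-28 (SD), and KLK15 had 8.37 ± 0.46 and 5.84 ± 0.32. ADAMTS6, MMP25-AS1, PRSS33 and TMPRSS5 were also higher in SK-MEL-28, by 1.17 to 1.33. In 5 of these 6 genes both untreated Mia-PaCa-2 arrays 4 and 5 lay outside the other arrays of their line on the side of SK-MEL-28, the exception being KLK15. In KLK15 and MMP10 both treated SK-MEL-28 arrays 3 and 5 lay outside the others on the side of Mia-PaCa-2. Over all probes that differed by more than 1, these shares were 70.2% and 45.0%.

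**Figure D4:**
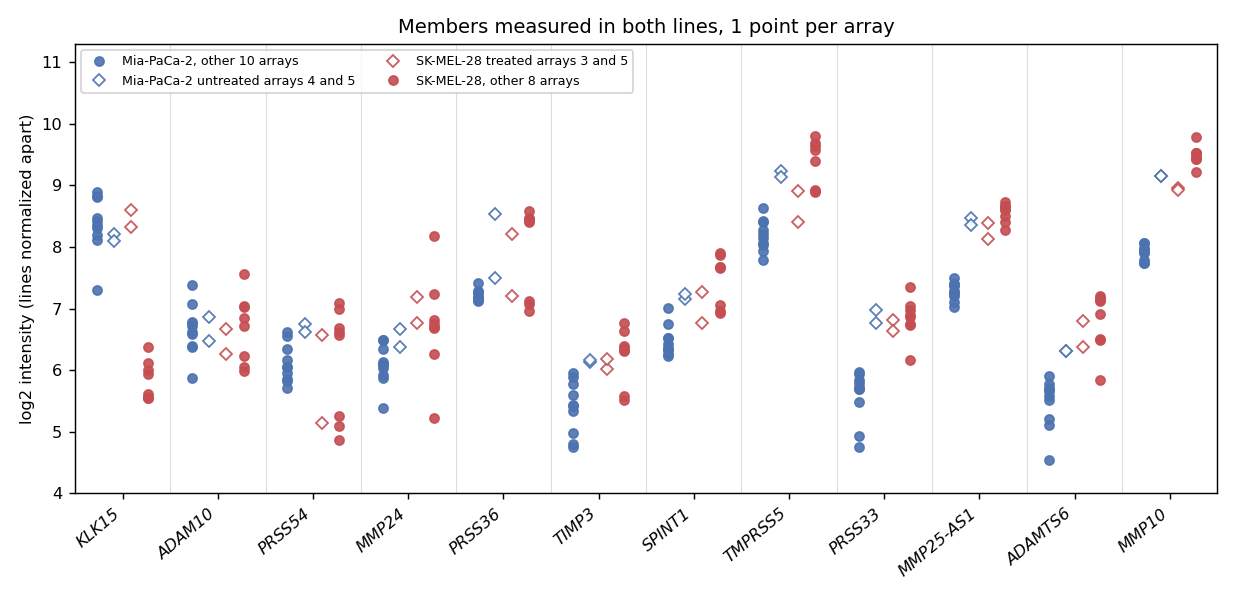
Log2 intensity (y axis; the lines were normalized apart) of the 12 members measured in both lines, 1 point per array; open diamonds are the arrays that resembled both lines, 2 untreated Mia-PaCa-2 arrays and 2 treated SK-MEL-28 arrays. In MMP10 the diamonds, at 9.15 to 9.16 and 8.93 to 8.95, lie between the other arrays of Mia-PaCa-2 (7.73 to 8.07) and of SK-MEL-28 (9.22 to 9.78).

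Further lists of genes around the proteases were counted in the same way, with members of the naming rule left out of the measured genes. KLKB1, a member measured in SK-MEL-28 alone, is among the 31 coagulation and fibrinolysis genes and was left out in this way. In Mia-PaCa-2 limma called 0 probes and found 0 with an unadjusted p under 0.05 in each list, against 0.0% and 9.59% of all probes, of which 48.8% lay below 0. Coagulation and fibrinolysis genes had 11 of 31 measured with 13 probes (7 above 0, 6 below), other extracellular proteases 5 of 38 (3 above, 2 below), other inhibitors 7 of 44 (2 above, 5 below), and matrix substrates 9 of 36 with 10 probes (2 above, 8 below). Without untreated arrays 4 and 5 the counts below 0 were 6, 3, 5 and 6. The smallest p in them belonged to AHSG, a plasma protein that also binds proteases, at -0.65 ± 0.313, and -0.15 without untreated arrays 4 and 5. PEBP1, an inhibitor of the RAF kinase pathway, had 0.54 ± 0.264 and 0.28 without them.

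In SK-MEL-28 those lists had 3, 6, 6 and 8 genes measured, 0 probes called, and 1, 1, 0 and 1 probes with an unadjusted p under 0.05, that is 3 of 24 probes, against 0.0% and 5.59% of all probes. F12, the contact-phase coagulation factor, was at 0.99 ± 0.414 and 0.29 without treated arrays 3 and 5. HTRA4, a secreted serine protease, was at -0.55 ± 0.25 and -0.58 without them. LTBP2, a matrix protein related to the TGF-beta-binding LTBPs, was at 1.33 ± 0.366 (limma unadjusted p = 0.00374, adjusted p = 0.838) and 1.17 without them. Its untreated arrays ran from 3.72 to 5.42, all below the lower quartile of all probes (5.92), and its treated arrays from 5.14 to 6.51.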

How the data were processed

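The authors deposited 1 intensity per probe and array on a linear scale, per the file headers, and a table of normalized intensities of the same probes, which was used. The values behave as a quantile normalization within each line. Background correction, filter and flags are not stated in those headers. Groups and replicate numbers come from the titles; another label gives every untreated Mia-PaCa-2 array the number 1. Probes were named through the platform annotation. Log2 values were fitted per line with limma 3.58.1 in R 4.3.3 (lmFit, eBayes; 3 or more values in each group; Benjamini-Hochberg adjustment over all probes of the line, threshold 0.05), and the difference between lines as a contrast over all arrays. Python 3.11.15, pandas 2.3.3, NumPy 2.4.6 and matplotlib 3.10.9 made the tables and figures. The tests were checked on simulated data with independent normal noise. That simulation held no arrays resembling both lines and no brightness sets, so it cannot speak for their effect.

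The members and lists were chosen with earlier results of these data known. Values are given for the 6 members with the smallest p and the 6 with the highest level in each line, and for Kunitz and plasminogen system members. Same-numbered arrays correlated at 0.247 to 0.602 in SK-MEL-28, where 3 of 5 correlated best with their own number. They also shared a brightness set there, so these correlations cannot show that the numbers are pairs. In Mia-PaCa-2 they correlated at -0.187 to 0.437, only 3 of 6 passed 0.1, and the numbers were not taken as pairs. The brightness sets (highest intensity over 20000, applied to both lines) were chosen after seeing the data, as were the alternatives that use them. The number of arrays limits the precision; median deposited intensities were 68.1 to 156 in Mia-PaCa-2 and 55.4 to 165 in SK-MEL-28.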

Additional observations from a re-analysis of the deposited data

Results flagged for a closer look

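In 4 of 106 groups of arrays (3.77%), where chance gives about 1 in 20, a single array lay far from the others of its group. PRSS36 was at 8.54 on untreated array 4 of Mia-PaCa-2, one of the arrays that resembled both lines, and ADAMTS13, the protease that cuts von Willebrand factor, was at 7.12 on treated array 4 of that line. MMP24, a membrane-bound MMP, was at 8.18 on untreated array 3 and at 5.22 on treated array 2 of SK-MEL-28.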

How the results depend on the processing

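Under every setting run, the count of members past the adjusted threshold was 0 in both lines and for the difference between them. The count with an unadjusted p under 0.05 was 3 in Mia-PaCa-2, 5 with array weights and 2 to 6 when 1 array was left out (6 without untreated array 1). In SK-MEL-28 it was 1 in the main fit, 2 on the bright arrays alone and 1 to 2 when 1 array was left out (2 without treated array 1 and without treated array 2). Without the lowest 25% of probes the counts were 2 of 21 members in Mia-PaCa-2 and 0 of 17 in SK-MEL-28. PRSS33 and PRSS22, with means below the lower quartile in Mia-PaCa-2 and SK-MEL-28, were themselves removed there and not tested. With the replicate number as a block the counts were 3 and 1, and no call changed. The median difference, -0.05 in SK-MEL-28, could not move under this block, since each member had a value on every array. Of 504 values under alternatives 30 reversed, in 8 of 27 results for single genes; the cause was not tested. In Mia-PaCa-2 array weights gave -0.063 for KLK15, 0.041 for SPINT1 and 0.036 for TMPRSS5, and leaving out untreated arrays 4 and 5 gave 0.19 for SPINT1 and 0.14 for TMPRSS5; the brightness set as a block gave 0.053 for SPINT1. That block left 2 members with an unadjusted p under 0.05. Without treated arrays 3 and 5 of SK-MEL-28, ADAMTSL4 was at 0.055, PRSS36 at 0.11, SPINT1 at 0.13 and TMPRSS5 at 0.16, and with the brightness set as a block as well at 0.063, 0.011, 0.078 and 0.12. PRSS36 was at 0.018 after median centring, 0.0035 with array weights and 0.14 on the bright arrays alone, where TIMP3 was at -0.18. When 1 array was left out, KLK15 ran from -0.12 to 0.20 and SPINT1 from -0.18 to 0.029 in Mia-PaCa-2; for SK-MEL-28, PRSS36 ran from -0.25 to 0.18, SPINT1 from -0.22 to 0.062 and TMPRSS5 from -0.32 to 0.026.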
